A study of Mus musculus with 24 samples.

Results

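The Hox genes of the 4 clusters are the 39 genes of the expression table whose symbol is Hoxa, Hoxb, Hoxc or Hoxd followed by a paralogue number, out of 34745 genes listed. They were chosen by symbol alone, without regard to their levels, and comprise 11 Hoxa, 10 Hoxb, 9 Hoxc and 9 Hoxd genes. RNA-seq was performed with whole 129/DBA hybrid embryos at embryonic day 13.5. All embryos were born to Zfp57-/- dams on the 129 background (129S6/SvEvTac) mated with Zfp57+/- (DBA*) sires mainly of DBA/2J origin, so that maternal Zfp57 was absent from both groups. The 6 M-Z+ embryos (Zfp57-/+) had a wild-type paternal allele, and the 6 M-Z- embryos (Zfp57-/-) were maternal-zygotic mutants with no functional copy. The labels give the genotype and a replicate number but neither sex, litter nor batch, and each p-value measures the spread between these single-embryo libraries.

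Hox genes encode homeodomain transcription factors that give cells their position along the head-to-tail axis. Within a cluster the genes are transcribed in the same direction and their order on the chromosome matches the order of their anterior limits: the low paralogue numbers lie at the 3′ end and reach into the hindbrain, the middle numbers act in the cervical and thoracic trunk, and the high numbers at the 5′ end act in the lumbar, sacral and tail regions and in the limbs, genital bud and urogenital tract. TALE homeodomain proteins (PBX, MEIS) bind DNA with them, retinoic acid, WNT and CDX factors set their domains, and Polycomb and Trithorax complexes keep them silent or active. A whole embryo mixes all these regions, so a level here is an average over the body, and fewer cells that use a gene and less RNA per cell cannot be told apart. ZFP57 is a KRAB zinc finger protein that keeps DNA methylation at imprinted regions, and the comparison asks which transcripts differ when its zygotic form is also missing.

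Between 12005145 and 19216288 reads per library were counted on genes. M-Z+ replicate 6 and M-Z- replicates 5 and 6 stood apart: their levels rose most steeply with gene length (slopes of 0.679, 0.671 and 0.681 in log2 CPM per doubling of length, against 0.448 to 0.577 in the other 9), and 14.4% of the 16026 tested genes were higher, and 12.7% lower, in all 3 than in any of the other 9. Among the Hox genes the same held for 3 higher genes (Hoxa6, Hoxc8 and Hoxd4) and 2 lower ones (Hoxa11 and Hoxc10) of the 38 tested. Reads counted on Zfp57 itself ranged from 19.1 to 40.8 CPM in M-Z+ and from 17.8 to 27.8 CPM in M-Z- embryos (log2 fold change -0.15 ± 0.18 SE). The deposited count covers the gene as a whole, so it does not test the genotype labels.

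The Hoxa cluster lay on chromosome 6 and the others at chr11:96194316-96368256 (Hoxb), chr15:102921103-103036852 (Hoxc) and chr2:74668310-74765142 (Hoxd), in the coordinates of the table, and the position of all 39 genes overlapped the RefSeq gene of the same symbol on GRCm38.p6. RefSeq promoter windows of 250 bases before to 50 after a start were at hand for 22 of the 39 genes (24 windows). They were searched on both strands for TGCCGC, the hexamer that ZFP57 recognises when its CpG is methylated, and for TTTATG, a hexamer bound by CDX factors. TGCCGC was found in 2 of the 24 windows (8.33%), against 11.6% of all 32851 windows. TTTATG was found in 5 of the 24 (20.8%), against 11.9% of all windows. The windows held a median of 14.5 CpG each, against 7 over all windows. The stretches before the start that carry the matches at Hoxa5 and Hoxd1 (ZFP57 hexamer) and at Hoxb8 and Hoxd4 (CDX hexamer) are shown in the 5′ to 3′ direction of each gene, with each match in capitals. They are C57BL/6J reference sequence, not that of the 129 or DBA alleles.
Hoxa5, chr6:52204609-52204664, minus strand, match read on the opposite strand: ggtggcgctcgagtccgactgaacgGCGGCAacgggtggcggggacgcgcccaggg
Hoxd1, chr2:74762942-74762979, plus strand: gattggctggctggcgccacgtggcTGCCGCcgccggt
Hoxb8, chr11:96281723-96281778, plus strand, with a match on each strand: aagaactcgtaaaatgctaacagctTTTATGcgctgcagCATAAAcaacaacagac
Hoxd4, chr2:74721908-74721963, plus strand: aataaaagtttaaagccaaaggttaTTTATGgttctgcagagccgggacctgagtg
These are matches of letters in a short window, and binding was not measured here. The genes with a ZFP57 hexamer match, Hoxa5 and Hoxd1, had log2 fold changes of -0.13 and 0.10 between M-Z- and M-Z+ embryos, and neither was called changed.

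Levels along the clusters were compared as FPKM, the deposited counts divided by gene length and library total. Nearly all Hox genes were transcribed at this stage: 36 of 39 averaged more than 1 FPKM over the 12 embryos, and 31 exceeded 1 FPKM in every embryo. Below this level were Hoxb1 (mean 0.0746 FPKM) and Hoxb13 (0.512 FPKM), the outermost genes of their cluster. The level did not fall or climb steadily along any cluster. Of 35 pairs of neighbours, the gene nearer the 3′ end had the higher mean in 13. In 19 pairs the order was the same in all 12 embryos, with the 5′ neighbour higher in 11 and the 3′ neighbour higher in 8, and in 14 pairs the ranges did not overlap at all.

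**Figure D1:**
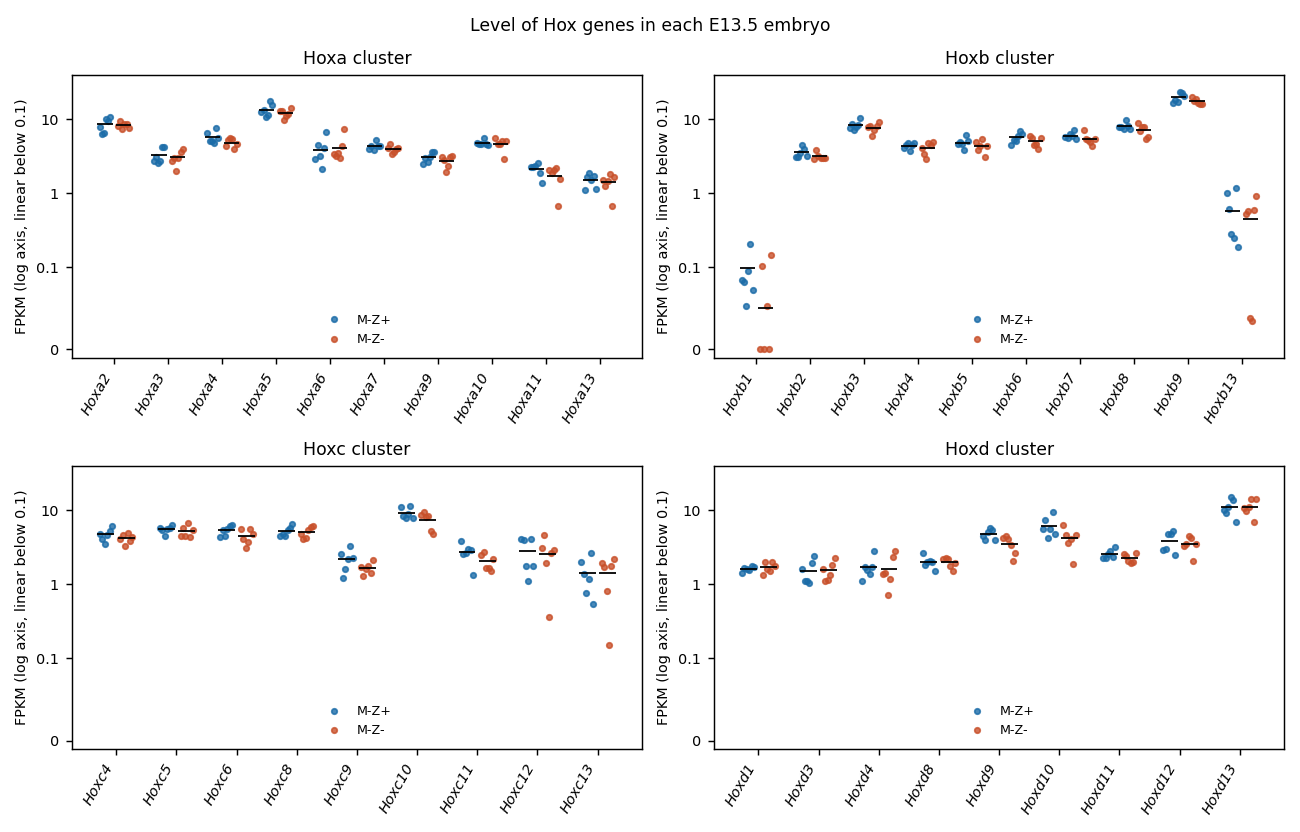
FPKM of the Hox genes reported (log axis, linear below 0.1) in the 6 M-Z+ (blue) and 6 M-Z- (orange) embryos, with genes in order from the 3′ end (left) to the 5′ end of each cluster and a bar at each group mean. Hoxa5, Hoxb9, Hoxc10 and Hoxd13 are the highest gene of their cluster in both groups, while Hoxb1 and Hoxb13 sit far below their neighbours.

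Hoxa levels had their peak in the middle of the cluster. Hoxa5, which acts in the lung, the neck and the upper trunk, was highest at 12.8 ± 2.11 FPKM (SD over 12 embryos, range 9.84 to 17.4). Hoxa2, the hindbrain and branchial arch gene, followed at 8.38 ± 1.34 FPKM. Hoxa4 (5.28 FPKM), Hoxa10 (4.71 FPKM), Hoxa7 (4.13 FPKM), Hoxa6 (3.98 FPKM), Hoxa3 (3.15 FPKM) and Hoxa9 (2.89 FPKM) formed a middle tier in which neighbours in rank mostly overlapped. Hoxa6 and Hoxa7, for example, changed places, with Hoxa6 higher in 5 of 12 embryos. By FPKM the 5′ genes Hoxa11 (1.92) and Hoxa13 (1.44), used in the forearm, the kidney and the hand plate, came last among the well transcribed ones. That last place changes with the gene length used.

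By mean FPKM the Hoxb cluster fell from Hoxb3 to Hoxb4, rose from there to Hoxb9 and fell at Hoxb13. Hoxb9, a thoracic gene, was the highest of all 39 Hox genes at 18.7 ± 2.5 FPKM (range 15.9 to 23.1), and it exceeded Hoxb8 (7.59 FPKM) in every embryo. Hoxb3 reached 7.96 FPKM, and Hoxb7 (5.71), Hoxb6 (5.34), Hoxb5 (4.55) and Hoxb4 (4.22 FPKM) had higher means than Hoxb2 (3.34 FPKM), an order that changes with the gene length used. Hoxb1, which marks a segment of the early hindbrain, was hardly detected. It had 3, 3, 2, 5, 9 and 4 reads in M-Z+ replicates 1 to 6 and 0, 4, 0, 2, 0 and 6 reads in M-Z- replicates 1 to 6. These counts were too low for the filter, so Hoxb1 was left out of the main test (DESeq2 and a fit without the filter tested it and did not call it), and a count of 0 still allows up to 3 reads.

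In the Hoxc cluster, Hoxc10, which marks lumbar segments and hindlimb motor neurons, was highest at 8.38 ± 1.95 FPKM (range 4.82 to 11.5). Its neighbours on both sides were far lower in all 12 embryos, with Hoxc9 at 1.93 and Hoxc11 at 2.39 FPKM. Hoxc5 (5.41), Hoxc8 (5.2), Hoxc6 (4.97) and Hoxc4 (4.49 FPKM) lay close together with overlapping ranges. The listed span of Hoxc5 (49987 bases) overlaps those of Hoxc6, Hoxc8, Hoxc9 and Hoxc10. How reads in shared bases were counted is not stated. Hoxc12 (2.7 FPKM) and Hoxc13 (1.43 FPKM), the latter known from hair and nail and from the tail tip, ended the cluster.

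The Hoxd cluster had its highest level at the 5′ end. Hoxd13, the digit and genital bud gene at its 5′ end, was highest at 11.1 ± 2.77 FPKM (range 6.97 to 15.3), 3.01 times Hoxd12 (3.7 FPKM). Hoxd10 (5.22 FPKM) and Hoxd9 (4.15 FPKM), expressed in the limbs and the lumbar cord, came next and overlapped, with Hoxd9 the higher in 4 of 12 embryos. Hoxd11 (2.44), Hoxd8 (2), Hoxd4 (1.68), Hoxd1 (1.67) and Hoxd3 (1.55 FPKM) were lower, and the last 3 could not be separated by the spread between embryos. The order below Hoxd13 changes with the gene length used.

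The FPKM order depends on the gene length used. In the median, the lengths implied by the deposited values match the sum of all distinct exons of a gene. For 9908 genes with 3 or more transcripts in GENCODE vM1 the median ratio to that sum was 1, and to the merged exons 1.48. In the typical such gene bases shared by overlapping exons were thus counted more than once, which lowers FPKM. For 9 of the 39 Hox genes the implied length exceeded the span of the whole gene (Hoxa13, 5851 against 3187 bases). Other Hox genes went the other way, with an implied length below the merged exons of GENCODE vM1. Examples are Hoxa6 (874 against 2013 bases), Hoxb7 (1661 against 4084), Hoxb4 (2566 against 4149), Hoxd10 (1816 against 2651) and Hoxa2 (1775 against 2423). For these genes GENCODE vM1 differs from the annotation behind the deposited values, and their FPKM is not low for that reason. With counts per kilobase of merged exons, an alternative chosen after seeing the data and possible for 38 genes, 5 of 34 neighbour pairs changed order (Hoxa11 and Hoxa13, Hoxb6 and Hoxb7, Hoxc4 and Hoxc5, Hoxd1 and Hoxd3, Hoxd9 and Hoxd10). Hoxc8 (9.28 CPM per kilobase) then passed Hoxc10 (8.39) as the highest Hoxc gene, and Hoxd1 (1.67) replaced Hoxd3 (2.78) as the lowest Hoxd gene, while Hoxa5 (12.8), Hoxb9 (20.9) and Hoxd13 (11.2) stayed on top. In the Hoxb cluster, Hoxb6 (8.45) and Hoxb5 (7.59) then lay above Hoxb2 (4.82), and Hoxb4 (2.62) and Hoxb7 (2.32) below it. Hoxb3 was at 16 CPM per kilobase. The merged lengths of Hoxb4 (4149 bases) and Hoxb7 (4084) exceed the span of these genes in the deposited coordinates (3372 and 3540 bases). The new places of Hoxb4, Hoxb7 and Hoxd10 thus also carry the difference in annotation. In the Hoxa cluster, Hoxa10 (8.29) then lay above Hoxa2 (6.15), and Hoxa13 (3.425) and Hoxa11 (3.125) above Hoxa3 (3.115) and Hoxa6 (1.733). Hoxa2 and Hoxa6 are among the genes whose annotation differs. In the Hoxd cluster, Hoxd8 (3.605) then lay above Hoxd12 (3.582) and Hoxd10 (3.569), and Hoxd3 (2.782) above Hoxd11 (2.015). Comparisons of 1 gene between embryos do not depend on the length.

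The M-Z- embryos were then compared with the M-Z+ embryos. No Hox gene was called changed, a call being an adjusted p below 0.05 with a log2 fold change beyond 0.5 in edgeR's quasi-likelihood test. Over all 16026 tested genes 13 were called (0.0811%), 1 of the 38 tested Hox genes (2.63%) had an unadjusted p below 0.05 against 6.7% of all genes, and no Hox gene had groups without overlap against 0.574% of all genes. DESeq2 also called no Hox gene (39 calls in all). The smallest adjusted p of any Hox gene was 0.744. The 95% interval of the log2 fold change lay inside -0.5 to 0.5 for 21 of the 38 genes (55.3%, against 62.6% of all tested genes) and inside -1 to 1 for 34. Hoxd10, Hoxb13, Hoxc12 and Hoxc13 were the 4 whose interval was wider, and for them a change of that size remains inside the interval.

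Most of the small differences pointed down. The log2 fold change, M-Z- over M-Z+, was below 0 for 32 of 38 Hox genes (84.2%), against 51.7% of all tested genes, with a median of -0.12 against -0.0072 over all tested genes. The median over the Hox genes stayed below 0 under each scaling tried, and the number of lower genes stayed between 27 and 36 of 38 with each embryo left out in turn. The genes of a cluster are measured in the same embryos and vary together, so these 38 directions are not separate pieces of evidence. The median was -0.08 for Hoxa, -0.15 for Hoxb, -0.15 for Hoxc and -0.05 for Hoxd, the last moving to -0.21 with the gene length slope as covariate and to -0.16 without M-Z+ replicate 1. All 9 tested Hoxb genes were on the lower side, from -0.06 (Hoxb4) to -0.30 (Hoxb13), and for 8 of them the interval stayed within the limit of 0.5 (Hoxb9, -0.15, 95% interval -0.36 to 0.06). Genes on the higher side included Hoxa6 (0.10), Hoxc13 (0.04), Hoxd1 (0.10), Hoxd3 (0.04) and Hoxd13 (0.03). The signs for Hoxc13, Hoxd3 and Hoxd13 turned when single libraries were left out.

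**Figure D2:**
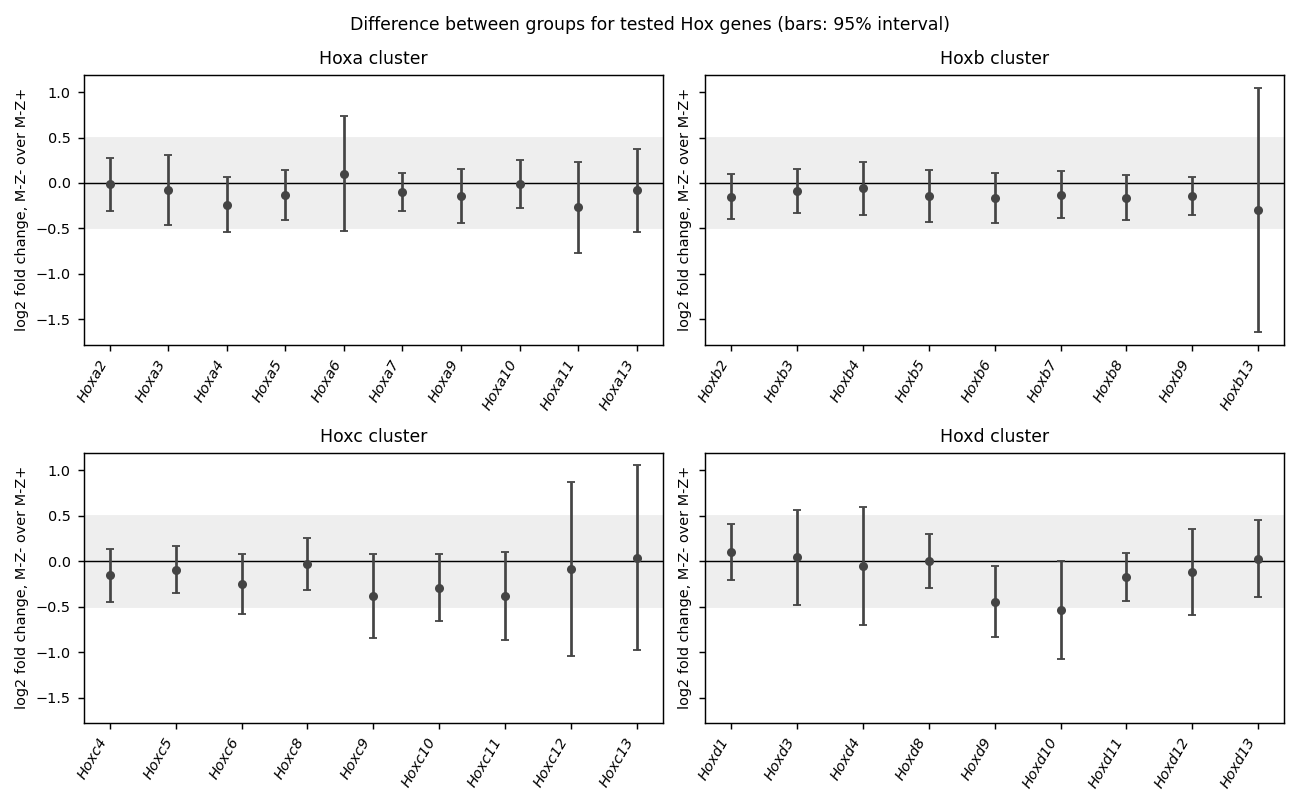
Log2 fold change of the tested Hox genes reported (points, M-Z- over M-Z+, 6 embryos each) with its 95% interval (bars), from the 3′ end (left) to the 5′ end of each cluster, and the band from -0.5 to 0.5 in grey. Most points lie just below 0, every interval but that of Hoxd9 includes 0, and the widest belong to Hoxb13, Hoxc12 and Hoxc13.

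The sum over the 39 genes shows the same small shift. It was 551 CPM at the lowest, 605 at the median and 701 at the highest in M-Z+ embryos, and 515, 571 and 619 CPM in M-Z- embryos. The groups overlapped widely, and M-Z+ replicate 5 had the highest sum in each of the 4 clusters. Without that embryo 28 genes were lower and the median was -0.07, and without M-Z- replicate 3, the lowest in the Hoxa and Hoxc sums, 27 were lower and the median was -0.07. Without the 3 libraries of steepest gene length slope, an alternative chosen after seeing the data, 33 genes were lower and the median was -0.12.

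By position on the axis, the median was -0.06 for paralogue groups 1 to 4 (11 tested genes, 8 lower), -0.13 for groups 5 to 8 (11 genes, 10 lower), -0.28 for groups 9 to 11 (10 genes, 10 lower) and -0.08 for groups 12 to 13 (6 genes, 4 lower). The difference between these classes was not tested. The 4 genes with the most negative values, Hoxd10, Hoxd9, Hoxc9 and Hoxc11, all belong to groups 9 to 11. In the 3 libraries of steepest gene length slope, 2 of them M-Z-, the mean level was lower than in the other 9 by a log2 ratio of -0.82 for Hoxa11, -0.64 for Hoxd9, -0.61 for Hoxc11, -0.60 for Hoxc10 and -0.56 for Hoxd10. Without these libraries the median was -0.11 for groups 1 to 4 and -0.10 for groups 5 to 8. It was -0.18 for groups 9 to 11 (9 of 10 lower) and -0.18 for groups 12 to 13 (6 of 6 lower). With the gene length slope as covariate it was -0.20 for groups 1 to 4 (9 of 11 lower) and -0.13 for groups 5 to 8. That fit gave -0.19 for groups 9 to 11 (9 of 10 lower) and 0.02 for groups 12 to 13 (2 of 6 lower). Groups 9 to 11 did not stand apart from groups 1 to 4 there. Groups 9 to 13 together had a median of -0.16 with all 12 embryos (14 of 16 lower).

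The 5 Hox genes with the smallest p between groups were Hoxd9, Hoxd10, Hoxc9, Hoxa4 and Hoxc10, all lower on average in M-Z- embryos. Hoxd9 was at 8.39 CPM in the lowest, 10.3 in the median and 12.4 in the highest M-Z+ embryo, and at 4.48, 8.11 and 9.68 CPM in the M-Z- embryos. Its log2 fold change was -0.44 ± 0.18 (SE, 95% interval -0.83 to -0.05; edgeR p = 0.0283, adjusted p = 0.744; exact permutation test, two-sided, p = 0.0368). The groups overlapped, and the lowest M-Z- values were those of replicates 5 and 6. Without the 3 libraries of steepest slope the value was -0.29 ± 0.14, over 1.5 times smaller.

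Hoxd10, the next gene on the 5′ side, was at 7.76 CPM in the lowest, 10.1 in the median and 17.3 in the highest M-Z+ embryo, and at 3.5, 7.98 and 11.6 CPM in the mutants. Its difference on the log2 scale was -0.53 ± 0.25 (95% interval -1.07 to 0.01; edgeR adjusted p = 0.749; exact permutation p = 0.0844). M-Z- replicate 5 was the lowest embryo for both genes. The remaining neighbours did not share the size of this difference, with Hoxd11 at -0.17 ± 0.12, Hoxd8 at -0.000435 ± 0.14 and Hoxd13 at 0.03 ± 0.20.

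Hoxc9, which sets the thoracic identity of motor neurons, was at 3.62, 6.7 and 9.9 CPM (lowest, median and highest) in M-Z+ and at 3.95, 5.06 and 6.48 CPM in M-Z- embryos. On the log2 scale M-Z- differed from M-Z+ by -0.38 ± 0.21 (edgeR adjusted p = 0.749; exact permutation p = 0.154). The M-Z+ embryos covered the whole M-Z- range, and without M-Z+ replicate 5 the value was -0.24. Hoxc10 was at 15.1, 16.4 and 21.9 CPM in M-Z+ and at 9.37, 15.9 and 18.5 CPM in M-Z- embryos, a log2 fold change of -0.29 ± 0.17 (edgeR adjusted p = 0.749; exact permutation p = 0.134). The lowest values were those of M-Z- replicates 5 and 6, and without the 3 steep libraries the log2 fold change was -0.13 ± 0.13. Hoxa4, a cervical gene, was at 7.44, 8.48 and 12.1 CPM in M-Z+ and at 6.38, 7.83 and 9 CPM in M-Z- embryos (-0.24 ± 0.14; edgeR adjusted p = 0.749; exact permutation p = 0.128), and without M-Z+ replicate 5 its log2 fold change was -0.15. None of the 5 passed the adjustment over all tested genes. Beside them, the part of the gene length slope was not tested.

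**Figure D3:**
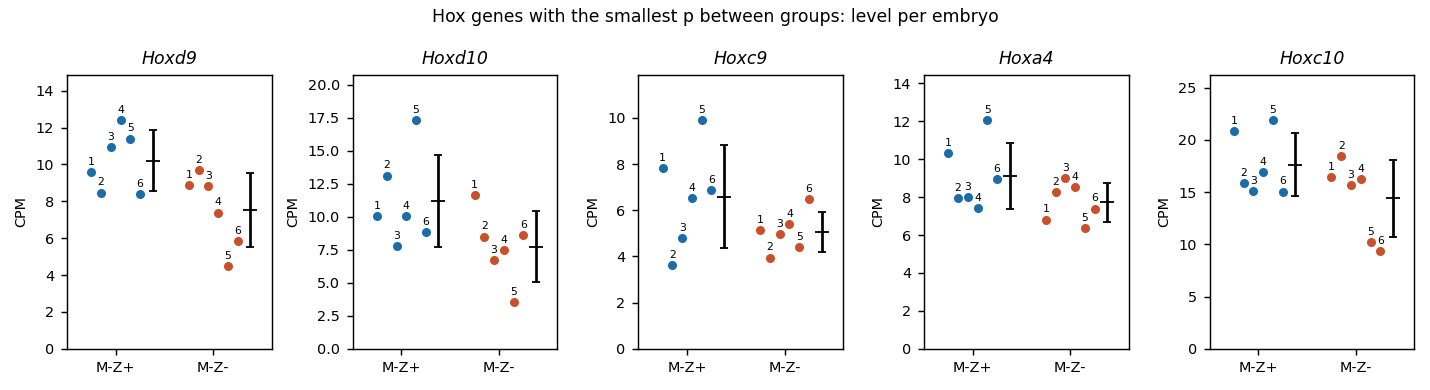
CPM per embryo of the 5 Hox genes with the smallest p between M-Z+ and M-Z-, with group mean and SD (black). Points are numbered by replicate, and the number was not taken as a pairing across groups. The groups overlap in each panel, and M-Z- replicate 5 is the lowest embryo for Hoxd9 and Hoxd10.

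The highest gene of each cluster showed little difference apart from Hoxc10: Hoxa5 was at 20.1, 23.9 and 32.5 CPM (lowest, median and highest) in M-Z+ and at 18.7, 23.3 and 27 CPM in M-Z- embryos, Hoxb9 at 47.6, 55.6 and 65.7 against 46.6, 49.6 and 57.8 CPM, and Hoxd13 at 17.5, 26.3 and 37.7 against 17.7, 27.1 and 36.2 CPM. The log2 fold change of Hoxa5, -0.13, was -0.05 without M-Z+ replicate 5 and -0.08 without M-Z- replicate 3. Hoxd3, the lowest Hoxd gene by FPKM, was at 10.7, 14 and 25.2 against 11.6, 15.4 and 24.1 CPM. Its row shares bases with Hoxd4, Hoxd3os1 and Haglr. In both groups the high Hoxd3 values included the libraries of steep slope.

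The widest variation was between embryos of the same group. The biological coefficient of variation (the spread between embryos of a group beyond counting error, from edgeR) had a median of 0.173 over the tested Hox genes and 0.164 over all tested genes. It was 0.732 for Hoxb13, 0.566 for Hoxc13 and 0.522 for Hoxc12, the genes of the tail end of the body. These, with the other members of paralogue groups 12 and 13, were singled out after their values were seen. Hoxc13 was at 1.35, 3.15 and 6.42 CPM (lowest, median and highest) in M-Z+ and at 0.381, 4.33 and 5.5 CPM in M-Z- embryos, a range of 16.9 times over the 12 embryos. For Hoxc12 the range was 12.5 times and for Hoxb13 33.5 times, the last with only 1 to 39 reads.

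These 3 genes were high and low in the same embryos. Their summed level was 11.4, 8.71, 4.34, 4.58, 13.2 and 3.59 CPM in M-Z+ replicates 1 to 6 and 9.06, 10.3, 4.12, 0.838, 8.55 and 10.6 CPM in M-Z- replicates 1 to 6. M-Z- replicate 4 was lowest for all 3, with 1 read of Hoxb13 (as in M-Z- replicate 3), and both groups held high and low embryos. The other members of these paralogue groups, Hoxa13, Hoxd12 and Hoxd13, which are used in the digits and genital bud, did not follow this order. Their summed level was 38.4, 39.5, 51.1, 58.4, 57.4 and 30.4 CPM in M-Z+ replicates 1 to 6 and 43.4, 41.1, 48, 56.6, 27.1 and 55.2 CPM in M-Z- replicates 1 to 6, a range of 2.15 times. M-Z- replicate 4, the lowest of the 12 embryos for the former sum, was the highest M-Z- embryo for the latter. Between groups the log2 fold changes were -0.30 ± 0.63 for Hoxb13, -0.08 ± 0.45 for Hoxc12, 0.04 ± 0.47 for Hoxc13, -0.08 ± 0.21 for Hoxa13, -0.12 ± 0.22 for Hoxd12 and 0.03 ± 0.20 for Hoxd13.

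**Figure D4:**
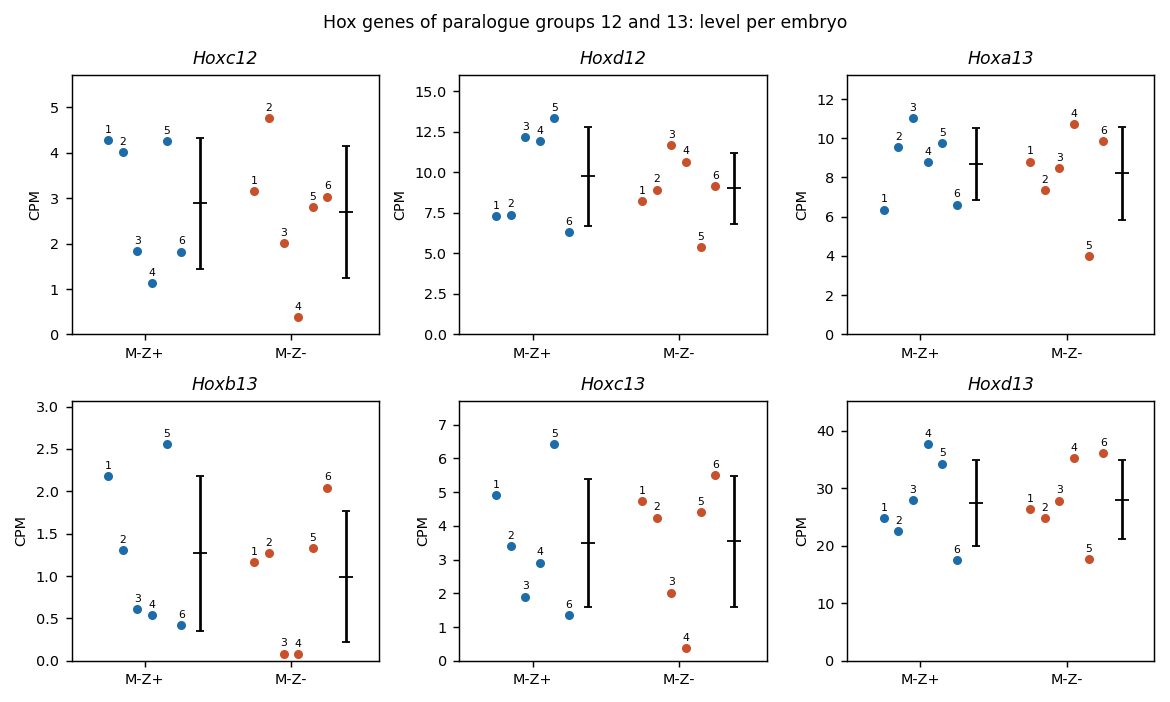
CPM per embryo (points, numbered by replicate) of the 6 Hox genes of paralogue groups 12 and 13 in M-Z+ (blue) and M-Z- (orange) embryos, with group mean and SD (black). Hoxb13, Hoxc12 and Hoxc13 are lowest in M-Z- replicate 4, whereas Hoxd13 and Hoxa13 are high in that embryo and lowest of the M-Z- embryos in replicate 5.

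Hoxd4 (BCV 0.364) and Hoxa6 (0.341) also varied widely, here together with the gene length slope. Hoxd4 lay between 12.6 and 15.2 CPM in the 3 steep libraries and between 3.78 and 9.11 CPM in the other 9. Hoxa6 lay between 3.85 and 6.55 CPM in the former and between 1.83 and 3.78 CPM in the latter, and Hoxc8 between 24.8 and 27.1 against 16.8 and 23.9 CPM. Hoxa11 went the other way, from 3.01 to 6.91 CPM in the steep libraries and from 8.12 to 11.1 CPM in the others. Hoxa6 and Hoxd4 lie inside the listed span of Hoxa3 and Hoxd3, and 22 of the 39 Hox genes share bases with at least 1 other row (11 with another Hox gene). The paper's methods count a read for every gene it overlaps and use its strand, but on mm9, while this table has GRCm38 coordinates. Whether the same counting made it is not stated.

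No call was made among the partners and regulators of Hox genes. Of the 9 TALE cofactor genes (Pbx, Meis and Pknox), 5 were lower and 4 higher, and none was called. Meis3 was at 23.2, 27.9 and 32.3 CPM in M-Z+ and at 21.9, 24.7 and 28 CPM in M-Z- embryos (-0.21 ± 0.10; edgeR adjusted p = 0.744), and Meis1 at 53.9, 67.4 and 77.4 against 65.6, 74.8 and 83 CPM (0.17 ± 0.09; edgeR adjusted p = 0.749). Of 16 genes of the axial signals, 11 were tested, with 9 lower, 2 higher and none called. Cdx1, Cdx4, Fgf8, T and Cyp26c1 did not pass the filter on low counts. Aldh1a2, the enzyme that makes retinoic acid, had a log2 fold change of -0.15 ± 0.10, and the retinoic acid receptor gene Rarg -0.12 ± 0.09 (edgeR adjusted p = 0.753 and 0.756; Rarg -0.07 without M-Z+ replicate 5). With the gene length slope as covariate Aldh1a2 was at -0.05, Rarg at -0.08 and Meis1 at 0.08. Without the 3 steep libraries these genes were at -0.12, -0.16 and 0.14. All 20 Polycomb and Trithorax genes were tested, 10 lower and 10 higher (median 0.01), and none was called. This even split depended on the libraries of steep slope. Without those 3 libraries 15 of the 20 were lower (median -0.05), and with the gene length slope as covariate 17 (median -0.07). The smallest p were those of Kdm6a, an H3K27 demethylase gene (0.29 ± 0.16), and Ezh1, a methyltransferase gene (-0.14 ± 0.08). Without M-Z- replicate 5, its highest embryo, Kdm6a was at 0.13, and without the 3 steep libraries at 0.15. Kdm6a lies on the X chromosome and the labels give no sex, so the part of sex in its level was not tested.

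The genes that flank the clusters and the noncoding RNAs within them gave no call either. Of 14 flanking genes listed, 11 were tested, 8 lower and 3 higher. Calcoco1 and Smug1, both next to the Hoxc cluster, had the smallest p, with log2 fold changes of -0.18 ± 0.07 and -0.22 ± 0.09 (edgeR adjusted p = 0.744 for each). Of 16 noncoding RNAs listed, 9 were tested, 7 lower and 2 higher. Hoxd3os1, an antisense transcript whose row overlaps Hoxd3, Hoxd4 and Hoxd8, had the smallest p of all these lists. It was at 0.886, 1.54 and 2.1 CPM in M-Z+ and at 0.745, 0.845 and 1.14 CPM in M-Z- embryos, on 10 to 32 reads. Its log2 fold change was -0.75 ± 0.23 (95% interval -1.24 to -0.25; edgeR p = 0.00588, adjusted p = 0.664; exact permutation p = 0.00866). The M-Z+ and M-Z- ranges overlapped only through M-Z+ replicate 6, the lowest of its group. Hoxaas2, in the Hoxa cluster, had a log2 fold change of -0.33 ± 0.36 (edgeR adjusted p = 0.804), and leaving out 1 embryo moved it to between -0.59 (M-Z- replicate 6 left out) and -0.11 (M-Z+ replicate 5 left out). It was also over 1.5 times smaller on leaving out M-Z+ replicate 6 (-0.15) or M-Z- replicate 1 (-0.21).

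Markers of tissues in which Hox genes act, and of others, were summed in each embryo. The ranges of the groups overlapped for every list, and no gene of these lists was called. The summed level of 8 limb genes ranged from 323 to 384 CPM in M-Z+ and from 324 to 361 CPM in M-Z- embryos, and that of 6 vertebral column genes from 133 to 167 and from 134 to 154 CPM. For 8 kidney and gonad genes the ranges were 153 to 205 and 164 to 179 CPM, and for 6 motor neuron genes 31.8 to 62.4 and 33 to 51.3 CPM. The 9 forebrain genes, a region without Hox expression, ranged from 185 to 233 and from 176 to 223 CPM. The 6 hepatocyte genes ranged from 3392 to 6777 CPM in M-Z+ and from 2551 to 6336 CPM in M-Z- embryos, and 6 erythroid genes from 3649 to 5281 and from 2928 to 4996 CPM. The 3 libraries of steepest gene length slope, 2 of them M-Z-, were the 3 lowest of the 12 for both of these lists. Chat, among the motor neuron genes, did not pass the filter. The medians of the lists' log2 fold changes were -0.06 for forebrain (6 of 9 lower), -0.22 for motor neuron (4 of 5 tested lower), -0.09 for limb (6 of 8), -0.12 for kidney and gonad (6 of 8), -0.09 for vertebral column (4 of 6), -0.28 for hepatocyte (6 of 6) and -0.13 for erythroid genes (6 of 6). Without the 3 steep libraries the medians were -0.20 for hepatocyte and -0.08 for erythroid genes. With the gene length slope as covariate they were -0.03 (4 of 6 lower) and -0.06 (5 of 6 lower). The marker genes with an unadjusted p below 0.05 were Lhx3 of the motor neuron list (log2 fold change -0.67 ± 0.28) and Wt1 of the kidney and gonad list (0.31 ± 0.13), each with an edgeR adjusted p of 0.744. The part of tissue composition in the Hox levels was not tested.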

How the data were processed

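RNA-seq of 6 M-Z+ and 6 M-Z- embryos was used. Groups and replicate numbers came from the labels, and the 12 bisulfite embryos were left aside (not analysed here). Raw counts and FPKM values were deposited by the authors, and the FPKM follow from these counts with 1 length per gene (implied lengths differed by at most 0.079% between libraries). The submitters' processing notes name HISAT2 2.0.4 and mm10. The paper describes another route for its RNA-seq (STAR on mm9, then stranded featureCounts with reads allowed to count for each overlapping gene, on a UCSC annotation). Which counting made the deposited GRCm38 table is not stated. The paper's RNA-seq set also held M+Z+ embryos, a group absent from the libraries used here. Whether its M-Z+ and M-Z- embryos are those of this table is not stated. Counts were tested with edgeR 4.0.16 in R 4.3.3 (TMM, filterByExpr, glmQLFit and glmQLFTest), with Benjamini-Hochberg adjustment over 16026 genes. CPM are counts scaled by TMM library sizes. For single genes, an exact two-sided permutation test of the difference in mean CPM used every split of the 12 embryos into 6 and 6, and its smallest p is 0.0022. FPKM were used for levels between genes only. DESeq2 1.42.0 and sva 3.50.0 gave alternatives. The fits were tested on simulated data.

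Values per embryo are given for the 5 Hox genes with the smallest p, the highest and lowest gene of each cluster, and any called gene or gene without overlap of groups. Of the cofactor, signal, Polycomb and Trithorax, flank and noncoding RNA lists, the 2 genes with the smallest p are named. The rule fixed for named genes covers the marker lists too, but these are given by counts, medians and summed levels, with the genes of unadjusted p below 0.05. The values of 1 member are not reported here. The members and lists were chosen with earlier results of these data known. Protein sequences were not used here. Figures were drawn with matplotlib 3.10.9.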

Additional observations from a re-analysis of the deposited data

Results flagged for a closer look

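In 8 of 100 groups of 6 embryos examined (1 in 20 would be 5), 1 embryo lay far from the rest of its group. For the Hox genes these were Hoxa6 at 6.55 CPM in M-Z- replicate 6 (the others 2.59 to 3.85), Hoxa10 at 36.8 CPM in M-Z+ replicate 4 (others 30.3 to 31.7) and at 20.3 CPM in M-Z- replicate 5 (others 31.4 to 37.6), Hoxb2 at 18.3 CPM in M-Z- replicate 2 (others 13.8 to 15.4), Hoxb8 at 42.7 CPM in M-Z+ replicate 4 (others 33 to 36.1) and Hoxd4 at 15.2 CPM in M-Z+ replicate 6 (others 5.8 to 9.11). Hoxb1 was at 0.59 CPM in M-Z+ replicate 5 (others 0.152 to 0.27), on 9 reads. Among the other genes named, Kdm6a was at 112 CPM in M-Z- replicate 5 (others 56.7 to 75.6). The Hoxa6 and Hoxd4 values, the lower Hoxa10 value and the Kdm6a value belong to the 3 libraries of steepest gene length slope. All genes were measured in the same embryos, so the groups are not independent and 1 in 20 is not a chance expectation for them.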

How the results depend on the processing

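No Hox gene was called under any of the alternatives, and the median over the Hox genes stayed below 0 in each. The number of genes called over the whole table, 13, was 39 with DESeq2, 21 with the replicate number as a block, 23 with a covariate for gene length slope, 40 with 2 surrogate variables and 247 at an unadjusted p below 0.05, and 11 to 15 with 1 embryo left out. With 1 embryo left out the median over the Hox genes ranged from -0.16 to -0.07, with ranges of -0.16 to -0.05 for Hoxa, -0.19 to -0.09 for Hoxb, -0.25 to -0.09 for Hoxc and -0.16 to -0.01 for Hoxd. The Hoxd median was -0.21 with the gene length slope as covariate. Same-numbered embryos deviated together to a varying degree (all correlations positive, 0.0511 to 0.627), and embryos of different number were not compared. The labels state no pairing, so the number was not taken as one. With the number as a block, 2120 genes had an unadjusted edgeR p below 0.05, against 1074 without it. The block called 0 Hox genes, with a smallest Hox edgeR adjusted p of 0.358, against 0.744 without it.

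Of 439 alternative values for the 21 named genes, 24 changed sign, all of genes with a small difference. Hoxc13 turned to -0.017 under the replicate block and -0.47 without the 3 libraries of steepest slope, Hoxd13 to -0.056 without these libraries, and Hoxd3 to -0.21 with the slope as covariate, -0.027 with surrogate variables and -0.051 without these libraries. With 1 embryo left out the ranges were -0.14 to 0.31 for Hoxc13, -0.082 to 0.14 for Hoxd13, -0.11 to 0.22 for Hoxd3 and -0.24 to 0.0042 for Zfp57. The cause was not tested.

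The count of neighbour pairs with the 3′ gene higher, 13 of 35, was 13 with TMM counts per kilobase, 14 in each group alone and 14 of 34 with merged exons.

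Depth limits Hoxb1 and Hoxb13, with at most 9 and 39 reads per embryo.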
